A study of Arabidopsis thaliana with 12 samples.

Results

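Class III peroxidases are the secreted, haem-containing peroxidases of plants, a large family numbered PER1 to PER73 in Arabidopsis thaliana. The genes described here are 60 loci of that family, listed by their locus names. No measured value entered that rule, but the list was drawn up with earlier results of these data known. PER7, PER35, PER39, PER40, PER44 and PER57 were set aside, so no count below covers those 6 genes. Of the 60 loci, 43 had a probe set of their own on the array, out of 13286 genes that had one in the whole data set, and 6 shared 3 probe sets with a neighbouring copy. The remaining 11 (PER1, PER2, PER3, PER4, PER32, PER33, PER34, PER53, PER60, PER64 and PER73) had no annotated probe set here and were not analysed. Signals of 25 of the 43 were high enough to test, and 18 were not.

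These enzymes use hydrogen peroxide to oxidise phenolic compounds in the cell wall, which couples monolignols into lignin and cross-links wall polymers. They can also generate reactive oxygen species, and so they can either stiffen or loosen a wall. In the root they are known for building the Casparian strip of the endodermis and the walls of xylem vessels, and for a part in root hair growth. UPB1, a basic helix-loop-helix transcription factor, is known from Arabidopsis roots as a repressor of peroxidase genes at the border between the meristematic and the elongation zone.

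The study compared the elongation and the meristematic zone of roots from 3 genotypes on 12 Affymetrix ATH1 arrays. The arrays labelled OX came from the line 35S::UPB1-3YFP #2, which carries UPB1 fused to YFP behind the constitutive 35S promoter in the upb1-1 background, so that its endogenous locus is the mutant one. The other genotypes were the mutant upb1-1 and the wild type Col-0 (Columbia-0). All seedlings were 6 days old and grew on standard MS medium, and each of the 6 groups had 2 biological replicates of about 60 pooled roots, cut into zones with a razor blade. The overexpressor was a single line, and its RNA, like that of the others, went through a two-cycle amplification before hybridisation.

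UPB1 itself (AT2G47270) was read first as a check on the labels. In the elongation zone its signal was 53.6 and 35.3 on the OX arrays, 11.9 and 15.6 on the upb1-1 arrays, and 1379 and 1233 on the Col-0 arrays. In the meristematic zone it was 28.1 and 55.2 on the OX arrays, 8.53 and 16.8 on the upb1-1 arrays, and 667 and 528 on the Col-0 arrays. The low signal fits the mutant label of upb1-1 but goes against overexpression in the line labelled OX, in which UPB1 was lower than in Col-0 by limma (log2 change -4.46, adjusted p = 5.01e-07 in the elongation zone; -3.44, adjusted p = 1.1e-07 in the meristematic zone). It was higher in OX than in upb1-1, the line's own background, by 1.01 in the elongation zone (adjusted p = 0.0113) and 0.98 in the meristematic zone (adjusted p = 0.00548). The labels do not state whether the probe set lies in the part of the transcript that the transgene carries, and every direction drawn from OX below is that of the arrays labelled OX.

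Values are the authors' linear MAS5 signals, and the median signal of an array lay between 50.8 and 67.6. Fold changes are differences of log2(signal + 16), which understates the change of dim genes. A probe set was tested where it reached the 40th percentile of its array (a signal of 26.2 to 36.5) on at least 2 arrays, and it counted as higher or lower where limma's adjusted p over all 15834 tested probe sets was below 0.05. None of the 25 tested peroxidases passed that filter through 1 group alone, and 10 passed it on every array. The 3'/5' log2 ratio of the control transcripts (GAPDH, actin and ubiquitin), a measure of RNA and amplification quality, averaged 3.97 in OX, 4.04 in upb1-1 and 3.93 in Col-0 elongation zones, and 4.17 in OX, 2.04 in upb1-1 and 2.22 in Col-0 meristematic zones. The ratio therefore moved together with the OX comparisons in the meristematic zone and with the zone comparisons in upb1-1 and Col-0, and its part in those results was not tested. Of the root hair markers listed, 2 of 7 (EXPA7 and EXPA18) had a probe set, and none was annotated for the listed markers of endodermis (5), xylem (7), phloem (2), root cap (4) or green tissue (2).

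In the meristematic zone labelled OX, most of the tested peroxidases were lower than in Col-0. Of the 25 tested genes 15 fell and 2 rose, where over all tested probe sets 23.5% fell and 26% rose (49.5% in all). Among the called genes, PER54 (lower) and PER38 (higher) reached the filter on elongation arrays alone and were dim on every array of this zone. PER54 had 1.63 and 2.29 on OX arrays against 12.7 and 13.1 on Col-0 arrays. The median log2 change was -0.70 over the 25 and 0.10 over all tested probe sets. The genes with the largest falls were PER27, PER45, PER21, PER69 and PER72. Against upb1-1 the same 15 genes fell and 2 rose, where 24.5% of all probe sets fell and 27.5% rose (52% in all), and the median was -0.83 over the 25 and 0.11 over all. The OX arrays are common to both of these comparisons.

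PER27 (AT3G01190) had signals of 273 and 20.6 on the OX arrays of the meristematic zone, against 5944 and 6009.9 on the upb1-1 arrays and 5631 and 5573 on the Col-0 arrays. Both OX arrays lay far below all others, although on the log2 scale they differed from each other more than the replicates of any other group did for this gene. The log2 change was -5.77 ± 0.58 against Col-0 (limma, adjusted p = 1.99e-06, 2 arrays per group). It ranged between -7.26 and -4.28 over the alternatives tried, each OX array left out among them. Here and below, ± gives limma's standard error, which rests on the replicate spread of a gene in all groups, not only those compared. For PER27 it was also 0.58 between upb1-1 and Col-0, so the gap between its OX arrays widened it there too. PER27 passed no comparison without the OX arrays of this zone, and those tests carry this wider error.

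PER45 (AT4G30170) had signals of 179 and 84.4 on OX arrays, 6899 and 6384 on upb1-1 arrays and 6093 and 6465 on Col-0 arrays of the meristematic zone. PER21 (AT2G37130) had 29.8 and 2.75 on OX arrays, 803 and 771 on upb1-1 arrays and 889.6 and 1082 on Col-0 arrays. PER16 (AT2G18980) had 495 and 226 on OX arrays, 4585 and 4298 on upb1-1 arrays and 3972 and 4084 on Col-0 arrays. In each of these genes the OX arrays lay below every array of the other genotypes, and upb1-1 and Col-0 arrays lay close together. The log2 changes of OX against Col-0 were -5.49 ± 0.26 for PER45 (limma, adjusted p = 1.06e-09), -5.09 ± 0.31 for PER21 (adjusted p = 1.33e-08) and -3.52 ± 0.27 for PER16 (adjusted p = 1.13e-07).

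PER69 (AT5G64100), which acts with PER62 in root hair growth, had signals of 63.1 and 47.7 on OX arrays, 883 and 779 on upb1-1 arrays and 1957 and 1478 on Col-0 arrays of the meristematic zone. The 3 genotypes did not overlap. OX was lower than Col-0 by a log2 change of -4.60 ± 0.23 (limma, adjusted p = 1.44e-09), and upb1-1 differed from Col-0 by -1.02 ± 0.23, which did not pass the test (adjusted p = 0.592). The summed signal of the root hair markers EXPA7 and EXPA18 was also lowest in OX, with 15.4 and 30.6 as its range on OX arrays of this zone. It was 747 and 846 on upb1-1 arrays and 789 and 899 on Col-0 arrays, which overlapped, unlike those of PER69. In such bulk samples fewer cells of a type and less RNA per cell cannot be told apart, and the part of root hair cells in the fall of PER69 was not tested.

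**Figure D1:**
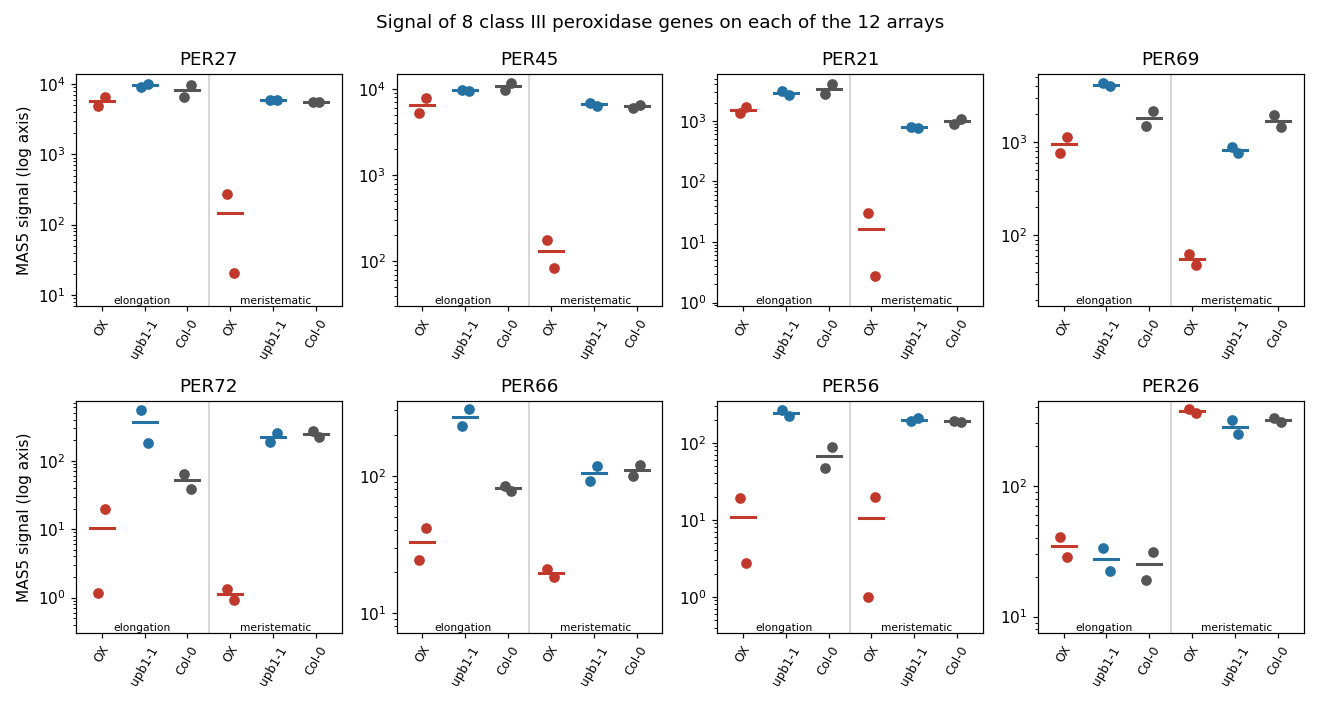
MAS5 signal (log axis) of 8 peroxidase genes on each of the 12 arrays; points are arrays, bars are group means, and the groups run OX, upb1-1, Col-0 with the elongation zone on the left. For PER27, PER45, PER21 and PER69 the OX arrays of the meristematic zone lie below all others, while PER26 is split by zone and not by genotype.

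Of the 6 tested genes tied to the Casparian strip or to lignin, 3 fell, beside 15 of all 25 tested peroxidases and 23.5% of all tested probe sets. The share in this group was thus not above that of the peroxidases as a whole. PER72 (AT5G66390), a lignin-forming peroxidase of the Casparian strip, had signals of 1.34 and 0.924 on OX arrays, 190.5 and 252 on upb1-1 arrays and 274 and 225 on Col-0 arrays of the meristematic zone. PER9 (AT1G44970), which acts with PER72 and others in the Casparian strip, had 34.2 and 4.54 on OX arrays, 79.1 and 110.4 on upb1-1 arrays and 130.1 and 135 on Col-0 arrays. PER66 (AT5G51890), linked to lignification of xylem vessels, had 20.8 and 18.1 on OX arrays, 92.0 and 119 on upb1-1 arrays and 99.8 and 121 on Col-0 arrays. The OX arrays lay lowest for each, and on both of them PER72 was near the bottom of the array's scale. Log2 changes of OX against Col-0 were -3.95 ± 0.41 for PER72 (limma, adjusted p = 2.64e-06), -2.21 ± 0.35 for PER9 (adjusted p = 0.000113) and -1.83 ± 0.24 for PER66 (adjusted p = 2.13e-05).

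The other 3, PER17, PER25 and PER47, were not called lower. PER17 (AT2G22420), which takes part in the formation of lignified tissue, had signals of 91.1 and 97.5 on OX arrays, 57.4 and 46.9 on upb1-1 arrays and 58.9 and 63.1 on Col-0 arrays of the meristematic zone. Its OX arrays were the highest, with a log2 change of 0.70 ± 0.21 against upb1-1 (limma, adjusted p = 0.0122) and of 0.52 ± 0.21 against Col-0, which did not pass (adjusted p = 0.0526). With upb1-1 replicate 2 or OX replicate 2 left out, the change against upb1-1 no longer passed (0.59 and 0.66, adjusted p = 0.102 and 0.0635). PER25 (AT2G41480), linked to stem lignin, and PER47 (AT4G33420), linked to vessels, were dim, and neither passed in any genotype comparison.

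The remaining falls of OX against Col-0 in the meristematic zone covered a wide range. PER30 (AT3G21770) fell by 3.38 on the log2 scale, with signals of 50.5 and 32.1 on OX arrays, 533 and 590.4 on upb1-1 arrays and 574 and 572 on Col-0 arrays. PER56 (AT5G15180) fell by 3.06, with signals of 0.992 and 19.9 on OX arrays, 191 and 209 on upb1-1 arrays and 191 and 188 on Col-0 arrays. PER24 (AT2G39040) fell by 2.32, with 167 and 148 on OX arrays, 936 and 929 on upb1-1 arrays and 831 and 863 on Col-0 arrays. No OX array overlapped another genotype in any of these. PER37 (AT4G08770), PER31 (AT3G28200), PER42 (AT4G21960, also called PRXR1) and PER54 (AT5G06730) had smaller changes of -0.91, -0.67, -0.63 and -0.69, with adjusted p-values of 0.000483, 0.00582, 0.011 and 0.0467 (limma). PER42, for example, still gave a strong signal on the OX arrays, 4932 and 4462, against 7309.9 and 6965 on the upb1-1 arrays and 7318 and 7235 on the Col-0 arrays.

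Both risers against Col-0 in the meristematic zone were small. PER63 (AT5G40150) had signals of 237 and 367 on OX arrays, 169 and 195 on upb1-1 arrays and 205 and 192 on Col-0 arrays, a log2 change of 0.54 ± 0.20 against Col-0 (limma, adjusted p = 0.0372) and 0.66 ± 0.20 against upb1-1 (adjusted p = 0.0135). PER38 (AT4G08780) had 26.5 and 31.7 on OX arrays, 23.5 and 19.7 on upb1-1 arrays and 17.2 and 2.75 on Col-0 arrays, a log2 change of 0.85 ± 0.32 against Col-0 (adjusted p = 0.0404). PER38 lies next to PER37 on the chromosome in a tandem pair. The pair went opposite ways in this comparison, but PER38 was below the filter on every array of this zone. The call of PER63 against Col-0 was lost without OX replicate 2 (0.24, adjusted p = 0.394), and without Col-0 replicate 1 or 2 (0.58 and 0.49, adjusted p = 0.0952 and 0.153). Without OX replicate 1 its change was 0.84. Against upb1-1 it did not pass with OX replicate 2 or upb1-1 replicate 1 left out (0.36 and 0.56, adjusted p = 0.198 and 0.104). PER38 was lost without Col-0 replicate 2, its lowest array (0.44, adjusted p = 0.356), and without OX replicate 1 or 2 (adjusted p = 0.0813 and 0.15).

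Of the falls against Col-0 in this zone, 3 did not hold under every alternative. PER54 was lost with any of the 4 arrays left out (adjusted p between 0.0996 and 0.137) and with median centring (adjusted p = 0.0659), as was PER42 with quantile normalization (-0.39, adjusted p = 0.065). PER42 was lost without Col-0 replicate 1 or 2 or OX replicate 2 (adjusted p = 0.0598, 0.0546 and 0.0767), and PER31 without Col-0 replicate 1 (adjusted p = 0.0519). The other 12 falls kept their call under every alternative run. Against upb1-1, PER42 was lost without upb1-1 replicate 1 or 2 or OX replicate 2 (adjusted p = 0.0818, 0.0551 and 0.0877), and PER54 with any of the 4 arrays left out (adjusted p between 0.0745 and 0.121), while the other 13 falls were kept. In the same zone BBM, a marker of the stem cell niche and the 1 of 5 on that list with a probe set, had signals of 102 and 116 on OX arrays, 55.2 and 56.0 on upb1-1 arrays and 35.4 and 47.9 on Col-0 arrays. AUR1, an Aurora kinase of dividing cells and the 1 of 4 on its list, had 723 and 699.9 on OX arrays, 363 and 377 on upb1-1 arrays and 371 and 396 on Col-0 arrays. Whether a different share of dividing cells in the cut tissue had a part in the peroxidase values was not tested.

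Between upb1-1 and Col-0, no peroxidase passed the test in the meristematic zone. Over all tested probe sets 0.0379% passed (0.0126% higher and 0.0253% lower), so this zone as a whole showed few differences between these genotypes, and 1 of the 25 peroxidases (PER69) had an unadjusted p below 0.05. Log2 changes of the 25 genes lay between -1.02 (PER69) and 0.59 (PER38), with standard errors of 0.17 to 0.58. Fitted on the 4 arrays compared alone, limma called 1 gene lower. A p above the threshold does not show that the levels were equal.

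In the elongation zone, upb1-1 roots had more transcript of a set of peroxidases than Col-0 roots. Of the 25 tested genes 7 rose and 1 fell, where over all tested probe sets 9.36% rose and 9.45% fell (18.8% in all). The median log2 change was 0.14 over the 25 and -0.02 over all tested probe sets. The 7 that rose were PER72, PER56, PER66, PER9, PER69, PER30 and PER24, and PER42 fell.

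Both tested peroxidases of the Casparian strip, PER72 and PER9, were among them, while PER3 and PER64 of that group had no annotated probe set here. PER72 had signals of 549 and 183 on upb1-1 arrays of the elongation zone and 1.16 and 19.6 on OX arrays, against 64.8 and 38.8 on Col-0 arrays. PER9 had 133 and 87.7 on upb1-1 arrays and 22.7 and 14.4 on OX arrays, against 29.7 and 26.5 on Col-0 arrays. For both genes the 3 genotypes stood apart without overlap, although the upb1-1 replicates of PER72 differed by a wide margin. The log2 change of upb1-1 against Col-0 was 2.34 ± 0.41 for PER72 (limma, adjusted p = 0.0022) and 1.50 ± 0.35 for PER9 (adjusted p = 0.00927). PER66, the vessel-linked gene, had 229 and 307 on upb1-1 arrays and 24.4 and 41.8 on OX arrays, against 84.6 and 77.2 on Col-0 arrays. Its upb1-1 arrays were the highest and its OX arrays the lowest of the zone, with a log2 change of 1.54 ± 0.24 for upb1-1 against Col-0 (adjusted p = 0.00104). PER17, PER25 and PER47 did not pass in upb1-1 against Col-0 (log2 changes of 0.08, 0.04 and 0.77).

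PER69 had signals of 4330.1 and 3999 on upb1-1 arrays of the elongation zone and 779 and 1145 on OX arrays, against 1508 and 2168 on Col-0 arrays. The 3 genotypes again did not overlap, and the log2 change of upb1-1 against Col-0 was 1.20 ± 0.23 (limma, adjusted p = 0.00337). Beside it, the summed signal of EXPA7 and EXPA18 ranged over 1741 to 3272 on upb1-1 arrays, 39.3 to 43.1 on OX arrays and 206 to 383 on Col-0 arrays. The part of root hair cells in the PER69 values of this zone was not tested either.

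PER56, PER30 and PER24 followed the same order of genotypes in their group means. PER56 had signals of 267 and 223 on upb1-1 arrays of the elongation zone and 19.1 and 2.74 on OX arrays, against 47.6 and 88.6 on Col-0 arrays. PER30 had 1178 and 1592 on upb1-1 arrays and 522 and 624 on OX arrays, against 565 and 782 on Col-0 arrays. PER24 had 2449 and 3846 on upb1-1 arrays and 698 and 834 on OX arrays, against 1146 and 2027 on Col-0 arrays. Only in PER30 did OX and Col-0 arrays overlap among these 3 genes. The log2 changes of upb1-1 against Col-0 were 1.67 ± 0.35, 1.03 ± 0.22 and 1.00 ± 0.25 for PER56, PER30 and PER24 (limma, adjusted p = 0.00588, 0.00599 and 0.0129). PER42 was the exception, with 5343 and 3469 on upb1-1 arrays and 4243 and 4685 on OX arrays, against 6677 and 7139 on Col-0 arrays, a log2 change of -0.68 ± 0.19 for upb1-1 against Col-0 (adjusted p = 0.0208).

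Of these 8 calls, PER66 and PER72 held under every alternative run. Without Col-0 replicate 1, only those 2 passed, and the others had adjusted p-values of 0.0625 (PER69, 0.94), 0.0688 (PER9, 1.55), 0.096 (PER30, 0.80), 0.0969 (PER56, 1.32), 0.0975 (PER42, -0.73) and 0.191 (PER24, 0.59). Without upb1-1 replicate 2, 5 passed, and PER24 (0.68, adjusted p = 0.146), PER30 (0.81, adjusted p = 0.0673) and PER42 (-0.37, adjusted p = 0.196) did not. PER42 was also lost without Col-0 replicate 2 (-0.63, adjusted p = 0.0728), where another gene passed and the count was 8. The 7 genes higher in upb1-1 elongation zones were all among the 15 lower in OX meristematic zones against Col-0 (100% of the 7 and 46.7% of the 15), 2 comparisons that share no array. Over all tested probe sets these shares were 46.6% of those higher in upb1-1 elongation zones and 18.6% of those lower in OX meristematic zones. The calls are not independent, since both comparisons use 1 spread per gene, estimated from all arrays. Of the 25 tested peroxidases, 60% were lower in OX meristematic zones.

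**Figure D2:**
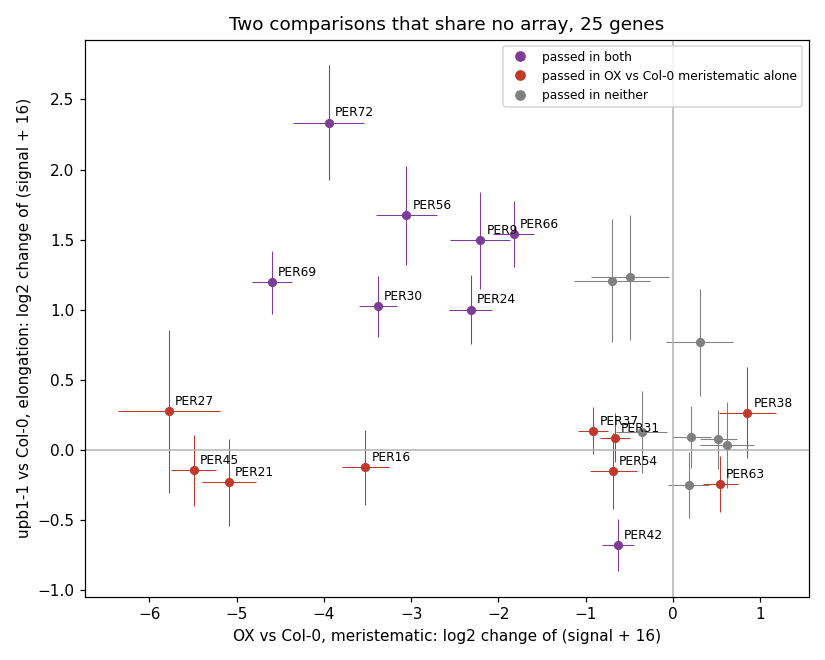
Log2 change of OX against Col-0 in the meristematic zone (horizontal) and of upb1-1 against Col-0 in the elongation zone (vertical) for the 25 tested peroxidases, each point a gene; purple points passed limma's test in both comparisons, which share no array. Of the 8 purple genes, 7 lie at the upper left (lower in OX, higher in upb1-1) and PER42 is negative on both axes. Both tests of a gene use the same estimate of its spread, so the calls are not independent.

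OX roots also had lower signals than Col-0 for some peroxidases in the elongation zone. Of the 25 genes 7 fell and 0 rose, where over all tested probe sets 7.46% fell and 6.64% rose (14.1% in all), and the median log2 change was -0.26 over the 25 and 0.02 over all. PER56 fell by 1.67 (limma, adjusted p = 0.007), PER72 by 1.43 (adjusted p = 0.032) and PER21 by 1.16 (adjusted p = 0.0243). PER66 fell by 1.00 (adjusted p = 0.0127), PER24 by 0.98 (adjusted p = 0.017), PER69 by 0.93 (adjusted p = 0.0144) and PER42 by 0.63 (adjusted p = 0.0355), with standard errors of 0.19 to 0.41 over the 7. PER21 had signals of 1327 and 1681 on OX arrays and 3072 and 2644 on upb1-1 arrays, against 2736 and 4094 on Col-0 arrays. The OX arrays of PER21 lay below all others of the zone.

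None of these 7 calls held under every alternative. Counts without 1 array were 5 without OX replicate 2 (4 of the 7 and another gene), 4 without Col-0 replicate 1, 2 without Col-0 replicate 2 and 1 without OX replicate 1. Without OX replicate 1 the adjusted p was 0.125 for PER66, 0.13 for PER24, 0.156 for PER69, 0.166 for PER21, 0.173 for PER42 and 0.28 for PER72, whose change was then -0.90. Without Col-0 replicate 2 it was 0.0623 for PER56, 0.117 for PER69, 0.128 for PER42, 0.16 for PER21 and 0.157 for PER24, whose change was then -0.58. Without Col-0 replicate 1 it was 0.0793 for PER66, 0.101 for PER42 and 0.207 for PER72, and without OX replicate 2 it was 0.0526 for PER21, 0.0679 for PER56 and 0.0712 for PER42. PER27 and PER45 fell far in OX meristematic zones but did not pass here. PER27 had signals of 4959 and 6665 on OX arrays, 9188 and 10180.0 on upb1-1 arrays and 6516 and 9768 on Col-0 arrays of the elongation zone, so that OX and Col-0 overlapped. PER45 had 5242 and 7898 on OX arrays, 9838 and 9475 on upb1-1 arrays and 9797 and 11641 on Col-0 arrays, a log2 change of -0.73 for OX against Col-0 (adjusted p = 0.0713).

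Against upb1-1, 10 of the 25 genes fell and 0 rose in OX elongation zones, where over all tested probe sets 12.6% fell and 11.6% rose (24.2% in all), and the median log2 change was -0.61 over the 25 and 0.07 over all. The largest falls were those of PER72 (-3.76 ± 0.41, limma, adjusted p = 1.94e-05), PER56 (-3.34 ± 0.35, adjusted p = 1.43e-05), PER66 (-2.54 ± 0.24, adjusted p = 4.32e-06) and PER69 (-2.12 ± 0.23, adjusted p = 1.56e-05). PER24, PER9 and PER30 fell by 1.99, 1.86 and 1.24, and these 7 kept their call under every alternative run. PER5 (AT1G14550) had dim signals of 3.90 and 7.61 on OX arrays, against 44.3 and 45.2 on upb1-1 arrays, with 2.95 and 19.3 on Col-0 arrays. It reached the filter on 3 arrays, these upb1-1 arrays among them, and would not have been tested without the group in which it was high. It fell by 1.49 against upb1-1 (adjusted p = 0.025) but was lost with any of the 4 arrays left out (adjusted p between 0.0546 and 0.119), as was PER21 (-0.93, adjusted p = 0.0428, and between 0.0774 and 0.214 with an array left out). PER17 fell by 0.66 (adjusted p = 0.0334) and did not pass with upb1-1 replicate 2 or OX replicate 1 left out (adjusted p = 0.203 and 0.174). This comparison shares the upb1-1 arrays with that of upb1-1 against Col-0 and the OX arrays with that of OX against Col-0.

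**Figure D3:**
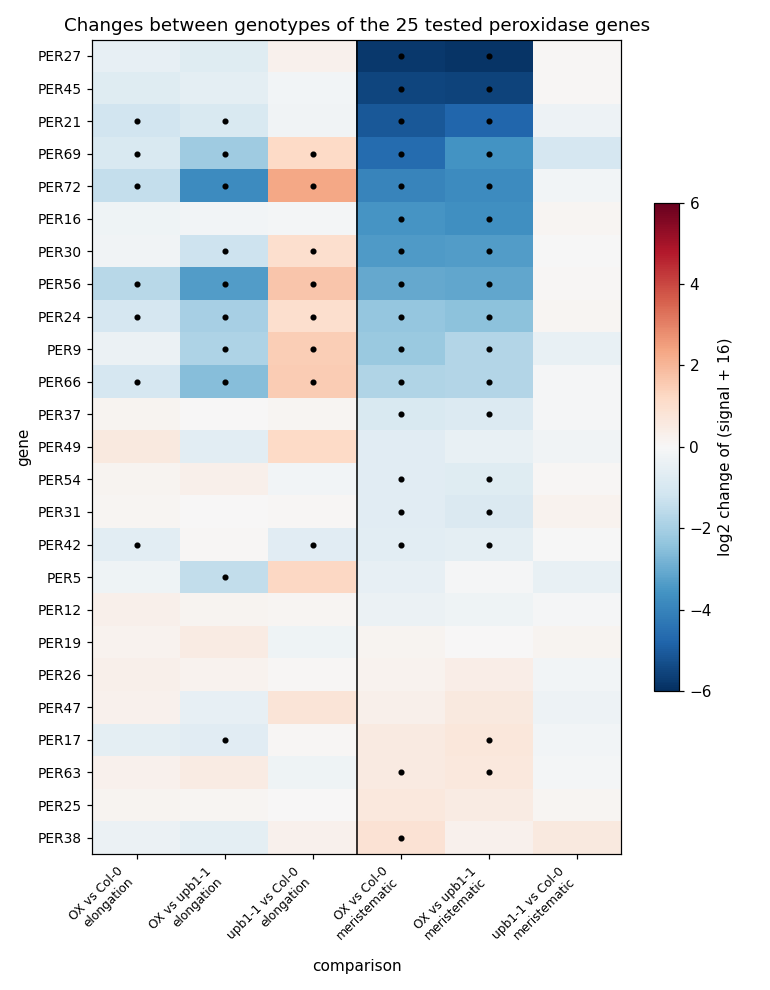
Heat map of the log2 change of the 25 tested peroxidases (rows) in the 6 genotype comparisons (columns); dots mark an adjusted p below 0.05 in limma. The column of upb1-1 against Col-0 in the meristematic zone has no dot, and the OX columns of that zone have 17 each.

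Across the 6 genotype comparisons, 19 of the 25 genes passed at least 1 test and 6 passed none, while 68.9% of all tested probe sets passed at least 1. Those 6 were PER12 (AT1G71695), PER19 (AT2G34060), PER25, PER26 (AT2G43480), PER47 and PER49 (AT4G36430). The group mean was highest in upb1-1 elongation zones for 12 of the 25 genes and lowest in OX meristematic zones for 15, against 22% and 26.2% of all tested probe sets. Some genes with large falls in OX meristematic zones did not pass in upb1-1 elongation zones: PER27, PER45, PER21 and PER16 had log2 changes of 0.28, -0.15, -0.23 and -0.12 in upb1-1 against Col-0 there, with adjusted p-values of 0.648 or more (limma). Across the 25 genes, which are not independent replicates, the Pearson correlation of the changes in those 2 comparisons was -0.26.

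Between the zones, 52%, 48% and 44% of the 25 genes passed in OX, upb1-1 and Col-0, near the shares of all tested probe sets. The directions differed more, with a larger share of the peroxidases higher and a smaller share lower in the elongation zone. In OX, 11 of the 25 genes were higher and 2 lower in the elongation zone than in the meristematic zone, where over all tested probe sets 23.9% were higher and 29.6% lower (53.5% in all). In upb1-1, 10 were higher and 2 lower, beside 24.1% and 28.5% of all (52.6% in all). In Col-0, 7 were higher and 4 lower, beside 17.5% and 22.8% of all (40.3% in all). Among the genes counted as higher, PER54 in each genotype and PER38 in Col-0 reached the filter on elongation arrays alone. PER5, counted as higher in upb1-1, would not have been tested without its upb1-1 elongation arrays. Median centring of the arrays moved the median of all tested probe sets in these comparisons to 0.12, 0.21 and 0.21 in OX, upb1-1 and Col-0, against -0.11, -0.04 and -0.06 as deposited, so the small zone changes below carry that uncertainty in scale.

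PER26 was lower in the elongation zone of all 3 genotypes. Its signals were 40.5 and 28.6 in elongation zones against 386 and 359 in meristematic zones of OX, 33.2 and 22.3 against 317 and 250.0 in upb1-1, and 19.2 and 31.1 against 329.9 and 309.9 in Col-0. The zones did not overlap and the genotypes did within the elongation zone. The log2 changes were -2.95, -2.78 and -3.04 in OX, upb1-1 and Col-0, each ± 0.22 (limma, adjusted p = 1.11e-07, 6.73e-07 and 8.94e-07).

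PER16, PER19, PER21, PER24 and PER54 were higher in the elongation zone of all 3 genotypes. PER54 reached the filter on elongation arrays alone, so it was tested only because of the zone in which it was called higher. PER54, for example, had 56.1 and 60.2 in elongation zones against 1.63 and 2.29 in meristematic zones of OX, 36.3 and 53.4 against 14.9 and 13.2 in upb1-1, and 55.8 and 46.3 against 12.7 and 13.1 in Col-0. PER19 had 167 and 203 against 80.3 and 77.2 in OX, 121 and 134 against 72.9 and 83.9 in upb1-1, and 206 and 115 against 68.9 and 66.3 in Col-0. For both genes every elongation array lay above every meristematic array of all genotypes. The log2 change of PER19 was 1.08, 0.61 and 1.03 in OX, upb1-1 and Col-0 (limma, adjusted p = 0.00129, 0.0403 and 0.00294), and its call in upb1-1 was lost with any of the 4 arrays left out (adjusted p between 0.0566 and 0.185). Without elongation replicate 1 its change in Col-0 was 0.65 (adjusted p = 0.0486). PER16 was lost in upb1-1 with any of the 4 left out too (0.67 with all arrays, adjusted p between 0.0791 and 0.163 without 1). In Col-0, PER16 and PER24 were lost without meristematic replicate 1 or 2 or elongation replicate 2 (adjusted p between 0.0534 and 0.107 for PER16 and between 0.0594 and 0.215 for PER24, whose change was 0.43 without elongation replicate 2), and PER54 was lost in upb1-1 without elongation replicate 2 (0.80, adjusted p = 0.0694).

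The largest zone differences were those of OX. PER27, PER21, PER45, PER16, PER69 and PER30 were higher in the elongation zone of OX by log2 changes of 5.81, 5.69, 5.53, 4.20, 3.76 and 3.38 (limma, adjusted p between 1.38e-09 and 1.48e-06). In Col-0 the same genes changed by 0.51, 1.75, 0.77, 0.94, 0.09 and 0.21 in that order, and PER27, PER69 and PER30 did not pass. In upb1-1 PER69 was higher in the elongation zone by 2.30 ± 0.23 (adjusted p = 2.26e-06), PER30 by 1.26 and the vessel-linked PER66 by 1.22. The call of PER45 in Col-0 (adjusted p = 0.0271) was lost without meristematic replicate 1 or 2 or elongation replicate 2 (adjusted p = 0.127, 0.0851 and 0.151). Without Col-0 meristematic replicate 2, 7 of the 11 calls in Col-0 were left.

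PER72, PER9 and PER56 were lower in the elongation zone of Col-0, with log2 changes of -1.99 ± 0.41, -1.75 ± 0.35 and -1.33 ± 0.35 (limma, adjusted p = 0.0015, 0.00112 and 0.00753). Their changes in upb1-1 were 0.51, 0.18 and 0.27, and in OX 0.53, 0.09 and 0.05, none of which passed. PER56 was lost in Col-0 without elongation replicate 1 (-0.98, adjusted p = 0.0847). The difference between the zone changes of upb1-1 and Col-0 passed its own test for PER72 (2.50 ± 0.58, adjusted p = 0.0379), PER69 (2.22 ± 0.32, adjusted p = 0.00255) and PER66 (1.60 ± 0.34, adjusted p = 0.024), and not for PER9 (1.93, adjusted p = 0.0522) or PER56 (1.60, adjusted p = 0.101). These 3 of 25 stand beside 1.48% of all tested probe sets higher and 0.783% lower in that test (2.27% in all). PER72 was lost without any one of the 4 Col-0 arrays or of the 2 meristematic upb1-1 arrays (adjusted p between 0.067 and 0.178), and PER66 without Col-0 elongation replicate 1, either Col-0 or upb1-1 meristematic replicate, or upb1-1 elongation replicate 2 (adjusted p between 0.0656 and 0.148). Counts were 1 without Col-0 elongation replicate 1 or any of the 4 meristematic arrays, and 7 without upb1-1 elongation replicate 1. Between OX and Col-0, the zone changes of 12 of the 25 genes differed, 11 of them higher in OX, beside 13.2% of all tested probe sets higher and 10.8% lower (24% in all).

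PER17 went opposite ways between zones, lower in the elongation zone of OX (-0.60 ± 0.21, limma, adjusted p = 0.0252) and higher in that of upb1-1 (0.76 ± 0.21, adjusted p = 0.00731). Its signals were 49.9 and 64.0 in elongation zones against 91.1 and 97.5 in meristematic zones of OX, 88.8 and 109.7 against 57.4 and 46.9 in upb1-1, and 89.2 and 96.3 against 58.9 and 63.1 in Col-0. The zones did not overlap in any genotype. Under quantile normalization and median centring the fall in OX did not pass (-0.37 and -0.38, adjusted p = 0.144 and 0.155), nor without OX elongation replicate 1 (adjusted p = 0.145) or OX meristematic replicate 1 or 2 (adjusted p = 0.0639 and 0.103). In upb1-1 it was lost without meristematic or elongation replicate 2 (adjusted p = 0.0709 and 0.058).

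The remaining zone calls varied in how far they rested on single arrays, and PER5 and PER38 among them were dim. PER38 reached the filter on elongation arrays alone, and PER5 on arrays of the upb1-1 elongation and Col-0 meristematic groups. Without the elongation arrays neither gene would have been tested. PER5 was higher in the elongation zone of upb1-1 (1.29, limma, adjusted p = 0.0245), and was lost without meristematic replicate 1 or elongation replicate 1 or 2 (0.81, 1.30 and 1.28, adjusted p = 0.231, 0.0672 and 0.0856). PER38 was higher in that of Col-0 (1.05, adjusted p = 0.0183), and was lost without elongation replicate 1 or meristematic replicate 2 (0.85 and 0.64, adjusted p = 0.122 and 0.203). PER42 was lower in the elongation zone of upb1-1 (-0.73, adjusted p = 0.00424), and its change was -0.42 without elongation replicate 2 (adjusted p = 0.0466). PER31 (0.85, adjusted p = 0.000864) and PER37 (0.63, adjusted p = 0.00584) were higher in that of OX. PER37 was lost there without OX meristematic replicate 1 or elongation replicate 2 (adjusted p = 0.077 and 0.0605). PER12, PER25, PER47, PER49 and PER63 passed no zone comparison.

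**Figure D4:**
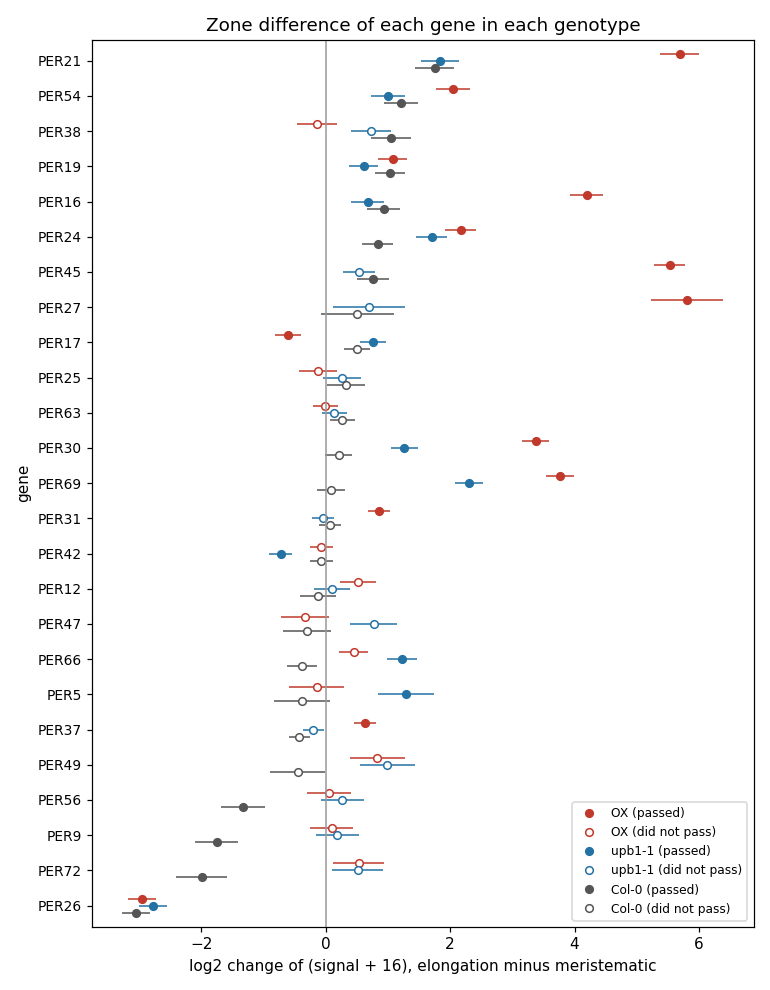
Log2 change of the elongation zone against the meristematic zone for the 25 tested peroxidases in OX, upb1-1 and Col-0, with standard errors as bars; filled points passed limma's test (adjusted p below 0.05). PER26 lies near -3 in all 3 genotypes, while PER27, PER45 and PER21 lie between 5.53 and 5.81 in OX and below 2 in upb1-1 and Col-0.

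Probe sets that match neighbouring copies cannot be assigned to 1 gene. The probe set of PER50 and PER51 had signals of 66.8 and 31.7 on OX arrays, 239 and 284 on upb1-1 arrays and 243 and 278 on Col-0 arrays of the meristematic zone, and OX was lower than Col-0 by a log2 change of -2.14 (limma, adjusted p = 3e-06). In the elongation zone it had 682 and 707 on OX arrays, 846 and 953 on upb1-1 arrays and 769 and 869.7 on Col-0 arrays, above every meristematic array. The log2 change between the zones was 3.50 in OX, 1.72 in upb1-1 and 1.59 in Col-0. The probe set of PER22 and PER23 had 48.2 and 33.2 on upb1-1 arrays of the elongation zone and 16.3 and 4.74 on OX arrays, against 2.03 and 14.0 on Col-0 arrays. It reached the filter on the upb1-1 arrays of that zone alone, so no test of it is given. The probe set of PER14 and PER15 was too dim to test.

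The 18 genes with a probe set of their own that were not tested gave a signal of 48.2 at most on any array. They were PER6, PER8, PER10, PER11, PER20, PER36, PER43, PER46, PER52, PER55, PER58, PER59, PER62, PER65, PER67, PER68, PER70 and PER71. Among them 13 reached the 40th percentile on no array and 5 on 1 array. PER62, the partner of PER69 in root hair growth, and PER52, linked to lignin of fibres, are among them. With the filter dropped, 6 of the 18 were called in at least 1 comparison, and the matching share over all probe sets was not computed. In OX against Col-0 meristematic zones, PER70 (1.21, limma, adjusted p = 0.00398), PER65 (1.20, adjusted p = 0.0386) and PER10 (0.69, adjusted p = 0.0436) were higher. PER62 was the only one of the 18 called lower there (-0.84, limma, adjusted p = 0.0461). Its signals there were 5.75 and 9.96 on OX arrays, against 21.7 and 32.2 on Col-0 arrays, which did not overlap but were all dim. PER8 was higher in upb1-1 than in Col-0 elongation zones (1.30, limma, adjusted p = 0.0184). In OX against upb1-1 it was lower in elongation (-1.14, adjusted p = 0.0218) and meristematic zones (-0.82, adjusted p = 0.0466). PER10 and PER70 were higher in OX than in upb1-1 meristematic zones. PER46, PER10 and PER65 were lower in the elongation zone of OX than in its meristematic zone, as was PER46 in upb1-1.

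Other genes of hydrogen peroxide and wall chemistry were sparsely covered, with 8 of 54 listed loci tested. They were 3 of 10 NADPH oxidases, which supply the superoxide from which apoplastic hydrogen peroxide forms, 2 of 8 ascorbate peroxidases, 1 of 17 genes of lignin monomer synthesis and laccases, and 2 of 9 genes of the Casparian strip. None of the 7 superoxide dismutases or 3 catalases listed had a probe set annotated. In the elongation zone of upb1-1 5 of the 8 were higher than in Col-0 and none lower, beside 9.36% and 9.45% of all tested probe sets, and in OX against Col-0 none was higher and 1 lower, beside 6.64% and 7.46%. In the meristematic zone OX had none higher and 5 lower than Col-0, beside 26% and 23.5% of all, and upb1-1 against Col-0 had none in either direction.

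The NADPH oxidase AT4G25090 had signals of 84.1 and 164 on upb1-1 arrays of the elongation zone and 12.4 and 22.0 on OX arrays, against 19.7 and 35.6 on Col-0 arrays. It was higher in upb1-1 than in Col-0 by 1.64 on the log2 scale (limma, adjusted p = 0.00374), as was the NADPH oxidase AT1G19230 by 1.22 (adjusted p = 0.0152). HCT, an enzyme of monolignol synthesis, had 1043 and 1527 on upb1-1 arrays and 512 and 449 on OX arrays, against 500.3 and 573 on Col-0 arrays, and was higher in upb1-1 by 1.21 (adjusted p = 0.00211). For HCT the upb1-1 arrays alone stood apart in that zone. GSO1, the receptor kinase that surveys the integrity of the Casparian strip, rose by 1.04 in upb1-1 (adjusted p = 0.00635), and the kinase gene AT1G61590 of the same pathway by 0.98 (adjusted p = 0.0275). In the meristematic zone OX was lower than Col-0 for AT4G25090 (-2.18, adjusted p = 5.54e-05), AT1G61590 (-1.94, adjusted p = 6.01e-05), GSO1 (-1.90, adjusted p = 8.17e-06), AT1G19230 (-1.58, adjusted p = 0.000752) and the ascorbate peroxidase SAPX (-0.82, adjusted p = 0.000977).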

How the data were processed

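RNA was hybridised to 12 Affymetrix ATH1 arrays, 2 biological replicates in each of 6 groups. The authors deposited 1 linear signal intensity per probe set and array, computed with MAS5 (version not stated) per the submitters' processing notes. The 2% trimmed mean (2% taken off each end) lay between 250.025 and 250.03 on every array, so the values had been scaled to a common level. No detection calls were used. The table held 22810 probe sets, of which 64 controls were left out.

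Signals were taken to log2 after adding 16, without further scaling. Probe sets that reached the 40th percentile of their array on at least 2 of the 12 arrays (15834) were fitted with limma 3.58.1 in R 4.3.3 as 6 group means, with eBayes and a trend of the variance, two-sided. The spread was estimated from all arrays together, with 8.75 prior degrees of freedom. Benjamini-Hochberg adjustment ran over all tested probe sets, and every adjusted p of a gene in all sections comes from limma. The fit was tested on simulated data with 200 of 15834 probe sets changed in upb1-1 elongation zones. Against Col-0 it recovered 41% of the changes of 1 log2 unit and 90% of those of 2, so a change near 1 can be missed. In the data 18.8% of all tested probe sets passed in this comparison, far more than were changed in the simulation. The recovered shares therefore need not hold for the tests reported here. With 2 arrays per group, their number limits the precision, and p-values measure the spread between these replicates.

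Loci were matched through the platform annotation, which lists 14016 probe sets, so a locus without an entry is unnamed here and not without a probe. No locus had more than 1 probe set of its own. PER numbers follow the locus order of the family. At each of the 12 loci where the gene table gives a number, the one used here was among those given. For PER2 (1 and 2) and PER53 (2 and 53) that table gives more than 1 number. The genes, role groups, pathway lists and tests were chosen with earlier results of these data known. Values on every array are given for up to 6 called genes with the smallest p in each genotype comparison, up to 4 in each zone comparison and both genes of a tested tandem pair, and other genes may be named with their values.

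Alternatives were a pseudocount of 1, no filter on dim probe sets, quantile normalization, median centring, no trend of the variance, a replicate block, only the arrays compared, each replicate left out and, added after the data were seen, only the 6 arrays of a zone.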

Additional observations from a re-analysis of the deposited data

Results flagged for a closer look

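The effect of a genotype differed between the zones by limma's interaction term, given here as the elongation change minus the meristematic change in log2 units. The term was positive for 14 peroxidase changes and negative for PER17. Of upb1-1 against Col-0, the term was 2.22 for PER69, 1.60 for PER66 and 2.50 for PER72, with every upb1-1 array above every Col-0 array in the elongation zone for these genes. For PER69 the 2 zones had opposite signs, with 1.20 in the elongation zone and -1.02, which did not pass, in the meristematic zone. Of OX against Col-0, it was 5.30 for PER27, 4.76 for PER45, 3.93 for PER21, 3.67 for PER69, 3.26 for PER16 and 3.17 for PER30, all with a deeper fall in the meristematic zone. Smaller terms of the same sign were 2.52 for PER72, 1.85 for PER9, 1.34 for PER24, 1.06 for PER37 and 0.79 for PER31. PER17 had -1.10, with changes of -0.58 in the elongation zone and 0.52 in the meristematic zone that did not pass on their own. The 3'/5' ratio of the control transcripts averaged 4.17 in OX and 2.22 in Col-0 meristematic zones, and 3.97 in OX and 3.93 in Col-0 elongation zones, and its part in the OX terms was not tested. Single arrays decided some of these terms. PER31 did not pass with 7 of the 8 arrays left out in turn (adjusted p between 0.0637 and 0.124), and passed without OX elongation replicate 2 (0.99, adjusted p = 0.0172). PER9 did not pass without OX elongation replicate 1 (1.67, adjusted p = 0.0531) or OX meristematic replicate 2 (1.20, adjusted p = 0.056). PER24 failed without Col-0 elongation replicate 1 (0.93, adjusted p = 0.0616) or OX elongation replicate 2 (1.21, adjusted p = 0.0513), and PER17 without Col-0 meristematic replicate 1, OX elongation replicate 1 or OX meristematic replicate 2 (adjusted p = 0.0571, 0.0524 and 0.0503).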

How the results depend on the processing

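Of 110 changes named by gene and comparison, 67 kept their call under every alternative, and over 1329 refits of single changes 1150 kept the call, 179 lost it and 0 changed sign. Counts of called peroxidases stayed within 1.5 times the reported one except as follows. For the difference of zone changes between upb1-1 and Col-0 (3) they were 1 with a pseudocount of 1 and 1 with no filter. In the elongation zone, for OX against Col-0 (7), they were 4 with no trend of the variance and 2 with only the 6 arrays of that zone, an alternative chosen after seeing the data. With only the arrays compared, upb1-1 against Col-0 gave 5 in the elongation zone (8) and 1 in the meristematic zone (0). With each replicate left out in turn the counts ranged over 13 to 15 for OX against Col-0 and 13 to 16 for OX against upb1-1 in the meristematic zone (17 each), 0 to 0 for upb1-1 against Col-0 there (0), 2 to 8 for upb1-1 against Col-0 (8), 1 to 5 for OX against Col-0 (7) and 7 to 9 for OX against upb1-1 (10) in the elongation zone, 11 to 14, 8 to 9 and 7 to 9 for the zones in OX, upb1-1 and Col-0 (13, 12 and 11), and 1 to 7 and 10 to 12 for the differences of zone changes of upb1-1 and OX from Col-0 (3 and 12). The causes were not tested, beyond the fewer arrays of those refits. With the replicate block the counts were 16 and 17 for OX against Col-0 and upb1-1 in the meristematic zone and 0 for upb1-1 against Col-0, then 7, 10 and 9 in the elongation zone, 13, 12 and 11 for the zones in OX, upb1-1 and Col-0, and 4 and 12 for the differences of zone changes of upb1-1 and OX. PER54 in OX against Col-0 of the meristematic zone lost its call with the block (adjusted p = 0.0563). Same-numbered arrays were not shown to be paired: deviations correlated between -0.15 and 0.28 over 15 pairs of groups, and 2 were over 0.1. Counting every probe set of a locus was not run, since no locus had several. The filter kept out 18 dim genes, of which 6 were called in at least 1 comparison without it. The matching share over all probe sets was not computed.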
